A study of Mus musculus with 4 samples.

Results

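The trypsinogen genes of the mouse were examined through the peaks that Ptf1a and c-Myc (Myc below) left over them in a chromatin immunoprecipitation and sequencing (ChIP-seq) series on pancreas. The stretch was defined by position alone, as every deposited peak whose midpoint lies on chromosome 6 from 41.2 to 41.5 Mb of the mouse build mm9, a window of 300 kb. This window was chosen with earlier results of these data known. It held 18 of the 17632 Ptf1a peaks and 4 of the 5464 Myc peaks. The pancreas came from Ela1-myc mice aged 8 weeks, in which a c-Myc transgene is driven by the elastase 1 promoter, which is active in acinar cells. All the mice carry that transgene, and no library of mice without it was analysed here. The Ptf1a library was made from 1 mouse and the Myc library from a pool of 3 mice, each with 1 peak list. The inputs, from 5 mice for Ptf1a and from the same 3 mice for Myc, were not analysed here. There was thus no replicate of either factor, no value below has an error between mice, and no test between conditions was possible.

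Trypsinogens are the inactive precursors of trypsin, the serine protease that acinar cells store in granules and release into the gut, where enteropeptidase cuts them and trypsin then activates the other pancreatic zymogens. Their genes arose by duplication and lie within the T-cell receptor beta locus, between variable segments and the diversity, joining and constant segments. Ptf1a is a basic helix-loop-helix protein that, with an E-protein and Rbpjl or Rbpj, forms the PTF1 complex of acinar cells. The complex reads a bipartite site, an E-box for the helix-loop-helix proteins and a TC-box for the Rbpj-type subunit. Myc is also a basic helix-loop-helix protein, which pairs with Max and prefers the E-box CACGTG.

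On the RefSeq annotation of GRCm38.p6, 8 protein-coding genes lie from Try4 to Prss2, in the order Try4, Try5, Try10, Prss3, Gm5771, Gm10334, Prss1 and Prss2. Between them the same table lists 3 pseudogenes, Gm18964, Gm5409 and Gm29813. The peaks are on mm9, and no position was carried from one build to the other, so no peak below is assigned to a single gene of the cluster. That the window holds these genes rests on the rule that defined it and was not checked on mm9. Promoter sequences were at hand for 6 of the 8 genes, and those of Try4, Prss1 and Prss2 are shown because these are the trypsinogens named in the definition of the window for which a sequence was at hand. Each is the stretch of 250 bases before the annotated start, 5′ to 3′ on the gene's strand, which is the plus strand for these 3 genes. They are RefSeq sequences of GRCm38.p6, at chr6:41302022-41302271 for Try4, chr6:41458680-41458929 for Prss1 and chr6:41521526-41521775 for Prss2, positions that are not to be set against those of the peaks. Capitals mark every E-box CANNTG and every TTCCCA, the core of the TC-box, on either strand (TGGGAA is its reverse complement).
Try4: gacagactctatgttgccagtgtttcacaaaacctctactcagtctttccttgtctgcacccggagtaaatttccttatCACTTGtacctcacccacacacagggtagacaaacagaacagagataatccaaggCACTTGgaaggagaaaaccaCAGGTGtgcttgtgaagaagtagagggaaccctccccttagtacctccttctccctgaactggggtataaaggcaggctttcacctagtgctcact
Prss1: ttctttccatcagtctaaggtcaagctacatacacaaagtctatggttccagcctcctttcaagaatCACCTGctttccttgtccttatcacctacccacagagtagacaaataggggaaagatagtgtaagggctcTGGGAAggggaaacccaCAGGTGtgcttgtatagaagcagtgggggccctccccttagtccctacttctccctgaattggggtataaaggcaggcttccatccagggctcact
Prss2: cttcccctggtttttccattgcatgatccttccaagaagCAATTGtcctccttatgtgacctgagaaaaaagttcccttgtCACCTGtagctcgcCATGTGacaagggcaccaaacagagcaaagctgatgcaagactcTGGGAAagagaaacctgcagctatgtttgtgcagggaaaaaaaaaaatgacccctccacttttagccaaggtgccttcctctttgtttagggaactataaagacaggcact

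All 6 promoters held CANNTG, which 66.2% of all 32841 RefSeq promoter stretches of the same length held. All 6 also held CACCTG (on either strand, so also as CAGGTG), against 17.2% of all, and TATAAA, against 12.4%. TTCCCA was found in Gm5771, Prss1 and Prss2 and in 21.6% of all promoters, CAGCTG in Prss3 and Gm10334 and in 13.0% of all. The letters CACGTG were in none of the 6 stretches and in 6.02% of all. AAGGTCA, the core bound by Nr5a2, was in Gm5771 and Prss1 and in 4.08% of all. The E-boxes with all letters given are forms of CANNTG, so these counts overlap. An E-box and a TTCCCA at most 25 bases apart stood in 2 of the 6 promoters, Gm5771 and Prss1, in each with 11 bases between them, and in 5.02% of all promoters. In Prss2 the nearest such arrangement had 38 bases between the motifs. Only the exact letters were sought, so similar ones nearer an E-box were not counted. The order and strand of the paired motifs were not considered. These matches describe the letters of the stretches and do not show binding.

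The surroundings of the E-box nearest the start of Try4 were compared with the other promoters of the family. The stretch of 30 bases around it, chosen after the sequences were seen, is shown for the best ungapped match in the promoters of Try4, Prss1, Prss3 and Prss2, with E-boxes in capitals. These lie at chr6:41302168-41302197 (plus), chr6:41458826-41458855 (plus), chr6:41377695-41377724 (minus) and chr6:41521674-41521703 (plus) of GRCm38.p6.
Try4: gaaaaccaCAGGTGtgcttgtgaagaagta
Prss1: gaaacccaCAGGTGtgcttgtatagaagca
Prss3: ggaaaataCAGCTGtgtttgttcagaaaat
Prss2: gaaacctgcagctatgtttgtgcagggaaa
The element began 104 bases before the start in Try4 and in Prss1, 111 in Prss3 and 102 in Prss2. Of its 30 bases, 26 were identical to Try4 in Prss1, 20 in Prss3 and 19 in Prss2, while the next best match within each of these promoters reached 14 or 15. Over the whole aligned promoters, with gaps allowed, identity to Try4 was 72.2% in Prss1, 60.5% in Prss3 and 62.2% in Prss2. Whether the element is more alike than the rest of the promoter was not tested. The Gm5771 element was the same as that of Prss1, and the Gm10334 element the same as that of Prss3. An E-box stood at these positions as CAGGTG in Prss1 and Gm5771 and as CAGCTG in Prss3 and Gm10334. In Prss2 these positions held none. The stretch was cut around the Try4 E-box, so Try4 holds one by choice. The copies are not independent, and the share of all promoters with such a match was not computed.

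The promoters were close copies in some cases. Over 15 pairs the identity of the aligned stretches ranged from 58.04% to 98.3%, with a median of 60.5%. Gm5771 and Prss1 shared 226 of 230 aligned bases (98.3%), and Prss3 and Gm10334 shared 226 of 233 (97.0%). Try4 and Prss1 stood at 72.2% and Prss1 and Prss2 at 58.5%. The genes are duplicates, so the motif counts above are not independent of each other. Reads from near-identical copies can align equally well to several places. The sources used here do not say how such reads were handled, and their part in the heights of the peaks was not tested.

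Ptf1a peaks were crowded in the window, though together they covered only 10.1 kb of its 300 kb. The 18 peaks ran from 41238565 to 41493291, a span of 255 kb. The window held 6 peaks per 100 kb against 0.691 per 100 kb over the autosomes and X, which is 8.68 times as dense. For the latter, each chromosome was measured from its first to its last peak in the Ptf1a list. The gap between neighbours had a median of 11.9 kb (range 0.726 to 40.9 kb), against 26.4 kb over the whole list. On either side the window was followed by sequence without Ptf1a peaks. The nearest peak outside lay 242 kb below the first, at 40996471 to 40996813 with a score of 50.11, and 139 kb above the last, at 41632361 to 41632810 with a score of 370.56.

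The score that the authors' peak caller gave each peak is used here to rank peaks within a list. Its scale is not stated, and the lowest score in either list is 50.0. The scores in the window fell into high and low values. Of the 18 Ptf1a peaks, 10 scored from 331.25 to 1707.34 and 8 from 52.33 to 159.97, and none lay between. In the window 55.6% of the peaks (95% Wilson interval 33.7 to 75.4%, counting error only) scored at least 300, a limit chosen after this gap was seen, as did 22.3% of the whole list. At a limit of 100 these were 13 of the 18, or 72.2% (49.1 to 87.5%), against 56.6% of the list. The median score was 358.6 in the window and 116 both over the list and over the 952 peaks of chromosome 6. The 95% interval of the window's median, from the order of its 18 scores, ran from 64.34 to 995.09 and included the value of the list. This interval treats the 18 peaks as independent, which neighbouring peaks of a locus are not. Among the 13 peaks of the window with a score of 100 or more, the median was 692.05. Widths differed little, with medians of 548 bp in the window (289 to 932 bp) and 515 bp in the list.

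**Figure D1:**
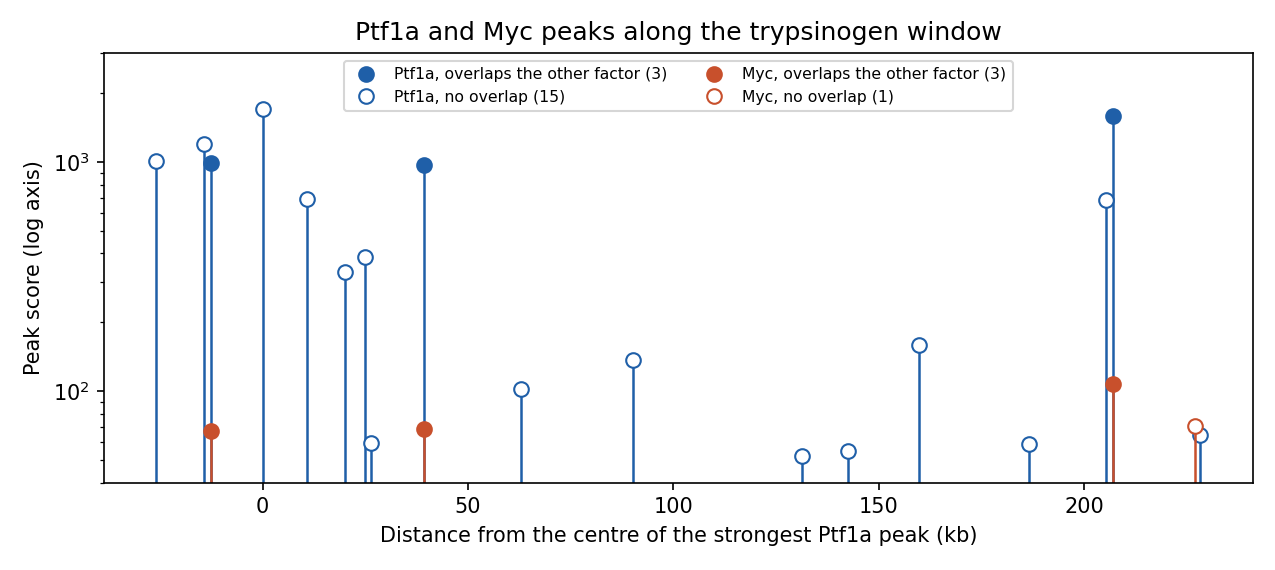
Score of each of the 18 Ptf1a and 4 Myc peaks (log axis) against its distance from the centre of the strongest Ptf1a peak in kb; filled points overlap a peak of the other factor. High Ptf1a peaks stand in a group at the left and in 2 neighbouring peaks at the right, with 6 low peaks between, and 3 of the 4 Myc peaks stand on Ptf1a peaks of 978 or more.

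High peaks stood towards both ends of the run of peaks, though the outermost peak at the upper end was low. Where the genes of the cluster lie among these peaks was not determined here. At the lower end a run of 7 peaks from 41238565 to 41290136, a stretch of 51.6 kb, scored from 331.25 to 1707.34. The first of them, at 41238565 to 41239203, had a score of 1011.63, and the next, at 41250119 to 41250750, had 1198.25. Only 1.08 kb further stood the peak at 41251831 to 41252545 with 995.09. Each of these 3 scored above 96.1 to 97.4% of the Ptf1a list. The highest score of the window belonged to the peak at 41264475 to 41265000, with 1707.34, which ranked 151 in the whole Ptf1a list. From there the scores were lower, with 692.05 at 41275290 to 41275782, 331.25 at 41284516 to 41285126 and 385.95 at 41289421 to 41290136. A low peak of 59.72 followed the last of these after 0.726 kb, at 41290863 to 41291355. Then came another high peak, at 41303727 to 41304507, with 977.91.

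The middle of the window held weak peaks, and no Myc peak overlapped them. Over the whole list, 13.4% of Ptf1a peaks of any score overlapped a Myc peak. With so few peaks the lack of overlap is a description and was not tested. The 6 peaks from 41327603 to 41451485, a stretch of 124 kb, scored from 52.33 to 159.97 with a median of 80.9. The highest of them was at 41424343 to 41424954, with 159.97, followed by 136.52 at 41354715 to 41355135 and 102.67 at 41327603 to 41327891. The other 3 scored 52.33 (41396019 to 41396307), 54.83 (41406969 to 41407332) and 59.06 (41451038 to 41451485), close to the lowest score of the list. They were narrow in part: the peaks of 102.67 and 52.33 were both 289 bp wide, the narrowest of the window.

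At the upper end 2 high peaks stood side by side. The peak at 41469785 to 41470307 had a score of 684.1, and 0.967 kb further the peak at 41471275 to 41472206 had 1598.13, the second highest of the window and rank 193 in the list. It was also the widest of the window, at 932 bp. The last peak, at 41492722 to 41493291, was low again with 64.34. Across the 18 peaks score and width rose together (Spearman's rho 0.721, across peaks of 1 library), as they did over the list (rho 0.657).

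**Figure D2:**
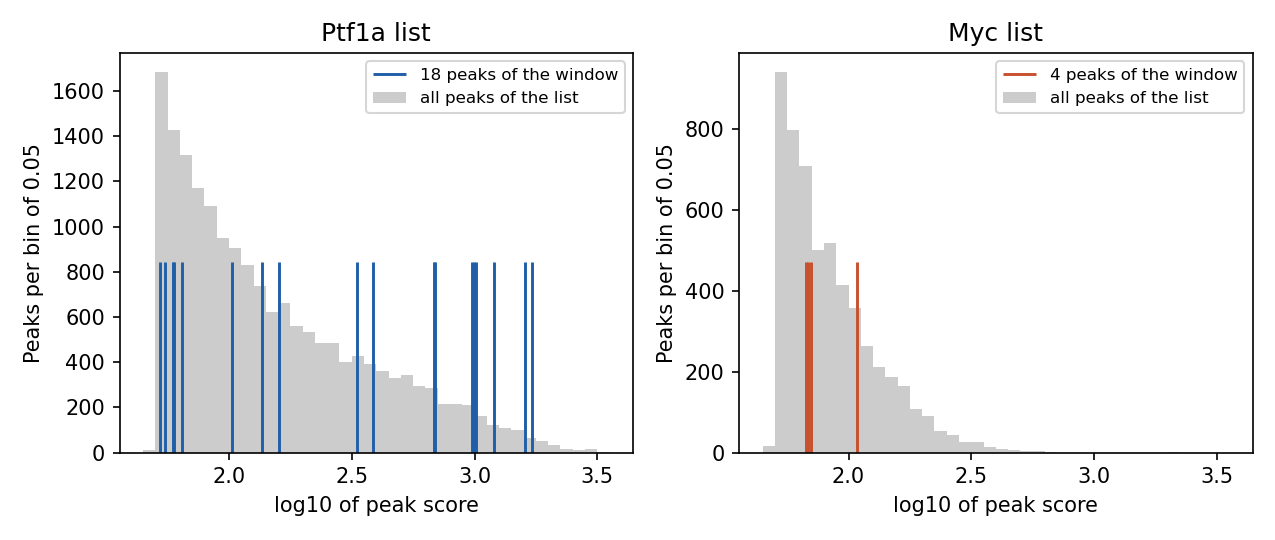
Distribution of log10 scores over all peaks of each list (grey bars, number of peaks per bin) with the peaks of the window as coloured lines. The Ptf1a lines spread from the lower end of the list, through its middle, to its upper tail, with none between 159.97 and 331.25, while the 4 Myc lines lie within the bulk, from 66.98 to 108.1.

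Crowded Ptf1a peaks were found in many places, and the cluster was set beside them to see where it differed. When peaks at most 12500 bp apart were joined, the lower end of the window gave a chain of 9 peaks from 41238565 to 41304507 (65.9 kb) with a median score of 977.91. The list held 46 other chains of 9 or more Ptf1a peaks, and their median scores ran from 70.8 to 409.33. The chain of the trypsinogen window thus had the highest median of the 47. Among the 355 other chains of 5 or more peaks, 2 had a higher median, and these held at most 6 peaks. The rest of the window fell into 7 groups of 1 or 2 peaks. Ranking chains by their median score was chosen after the data were seen. The order is a description of 1 library and was not tested.

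**Figure D3:**
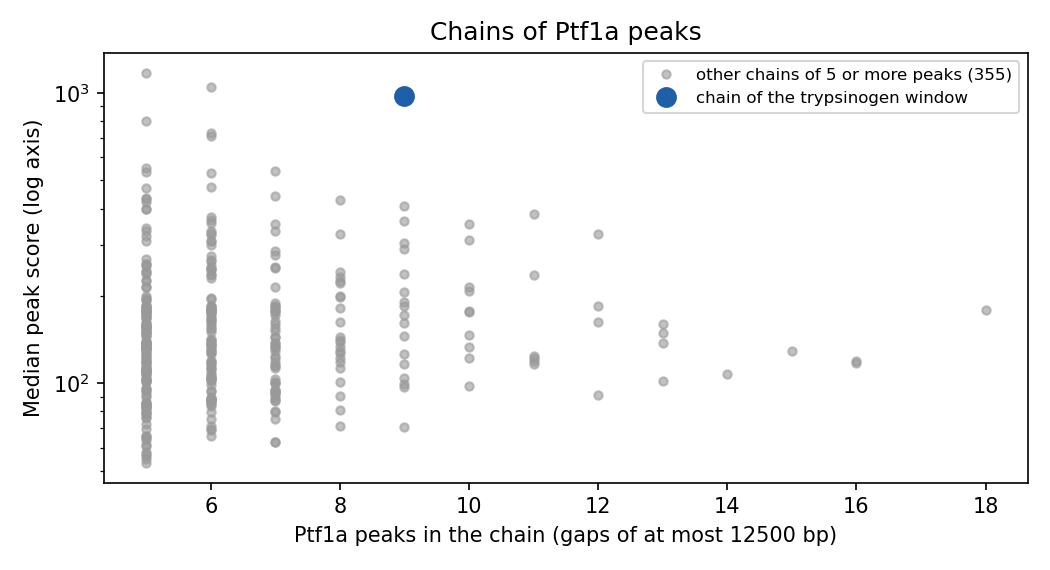
Median score (log axis) of each chain of 5 or more Ptf1a peaks against the number of peaks in the chain; each grey point is 1 of 355 other chains and the blue point is the chain of 9 at the lower end of the trypsinogen window. Its median of 977.91 lies above that of every other chain of 9 or more peaks, the highest of which is 409.33.

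Stretches of equal length were then compared, also a choice made after the data were seen. The autosomes and X were divided into 8543 tiles of 300 kb, laid so that the window was a tile. The median tile held 1 Ptf1a peak, and 0.351% of tiles (30, the window included) held 18 or more, up to 29. The median Ptf1a score in the 29 other tiles ranged from 92.8 to 340.57, against 358.6 in the window. The upper end of that range is close to the window's value.

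The window held 4 Myc peaks, of which 3 scored below the median of the list and 1 above it. This is 1.33 peaks per 100 kb against 0.216 over the autosomes and X, each measured from its first to its last Myc peak, or 6.18 times as dense. The median gap between neighbours was 51.1 kb against 99.2 kb over the list. The 4 scored 66.98 at 41251698 to 41252511, 68.68 at 41303599 to 41304422, 108.1 at 41471138 to 41472144 and 70.49 at 41491376 to 41491961. Their median of 69.6 lay below the 75.2 of the list, and 1 of the 4 reached 100, as did 28.7% of the list. The highest of them ranked 1317 in the Myc list, with 75.9% of Myc peaks scoring lower. The next Myc peaks outside were 257 kb below and 722 kb above. In number the window was above most tiles, since 4.97% of them held 4 or more Myc peaks. The 29 other tiles with at least 18 Ptf1a peaks held from 0 to 12 Myc peaks, with a median of 4, the same number as in the window.

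Of the 4 Myc peaks, 3 overlapped a Ptf1a peak (75%, 95% Wilson interval 30.1 to 95.4%), against 41.4% of the Myc list, a value inside that wide interval. Of the 18 Ptf1a peaks, 3 overlapped a Myc peak (16.7%, 5.84 to 39.2%), close to the 13.4% of the Ptf1a list. Among Ptf1a peaks with a score of 300 or more, the counts were 3 of 10 in the window and 21.7% in the list. In the chain of 9, 2 peaks overlapped a Myc peak, and in the 46 other chains 22.9% of peaks did. These shares are descriptions. Neighbouring peaks of a locus are not independent, and a difference from the list was not tested.

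The 3 shared sites were all at high Ptf1a peaks, those of 995.09, 977.91 and 1598.13. The highest Myc score of the window, 108.1, stood at the highest of these. Over the whole list, too, Ptf1a peaks that overlapped a Myc peak scored higher, with a median of 176.595 against 111.03 for the others. Of the 2356 overlapping Ptf1a peaks of the list, 856 scored 300 or more, as did all 3 in the window. Among all Ptf1a peaks, overlapping or not, 10 of 18 did so in the window and 3940 of 17632 in the list. The overlap covered 681 bp, 696 bp and 870 bp, or 95.2%, 89.1% and 93.3% of the Ptf1a peak. Over the list 21.7% of Ptf1a peaks with a score of 300 or more overlapped a Myc peak. In the window, too, high Ptf1a peaks without Myc were common. The strongest of the window, with 1707.34, was 12.0 kb from the nearest Myc peak, and that of 1011.63 was 12494 bp away. In both close couples of high Ptf1a peaks only the upper one overlapped Myc. The lower one was 947 bp from the Myc peak in the couple at 41250119 to 41252545 (1198.25 without and 995.09 with Myc) and 830 bp from it in the couple at 41469785 to 41472206 (684.1 without and 1598.13 with Myc). The fourth Myc peak, of 70.49, touched no Ptf1a peak, but the low Ptf1a peak of 64.34 began 760 bp above it.

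At each of the 3 shared sites the Myc peak was set a little towards the lower coordinate. Its midpoint lay 83.5 bp, 106.5 bp and 99.5 bp below that of the Ptf1a peak, its start 133 bp, 128 bp and 137 bp below, and its end 34 bp, 85 bp and 62 bp below. In all 3 both edges were thus at the lower coordinate. Over the 2368 overlapping pairs of the whole lists, the Myc midpoint was the lower in 51.2% and both Myc edges were the lower in 22.9%, and the middle of the offsets was near 0 (median -5.25 bp, quartiles -116 and 104 bp). With 3 sites this remains a description, and peak edges depend on settings of the peak caller, which the sources used here do not give.

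**Figure D4:**
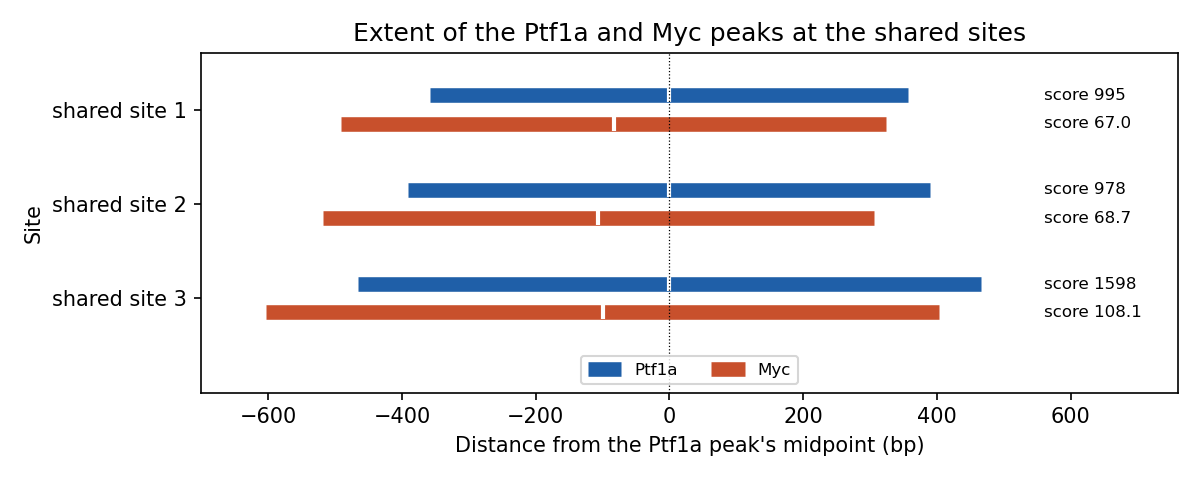
Extent of the Ptf1a peak (blue) and the Myc peak (orange) at the 3 shared sites in bp from the Ptf1a midpoint, with white ticks at the midpoints and the score at the right. The Myc midpoint lies 83.5 to 106.5 bp to the left of the Ptf1a midpoint at each site.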

How the data were processed

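The submitters' processing notes name BWA 0.5.9-r16, MACS 1.4.1, CASAVA 1.8 and FastQC 0.9.4, and build mm9. Tool roles, parameters and threshold, the use of the inputs and the treatment of reads with several matches: none of these is stated in the sources used here. The authors deposited 1 peak list per library, with position, name and score of each peak. Lists hold no read counts, so the depth is unknown.

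Peaks with a midpoint in the window were taken from both lists. Positions are on mm9, counted from 1. Peaks were called overlapping at 1 bp or more. Wilson intervals (95%) of shares cover only counting error. Peaks of a locus are not replicates, so no test was run. Every peak of the window is named, and genes are those the RefSeq table (GRCm38.p6) places from Try4 to Prss2, T-cell receptor segments left out. The window, lists and motifs were chosen with earlier results of these data known. Promoters were aligned pairwise with free end gaps (match 1, mismatch -1, gap opening -2, extension -1). The overlap and chain counts were tested on simulated data. Alternatives changed the window, score limit, overlap, chain gap and motif distance. Computations used Python 3.11.15, numpy 2.4.6, pandas 2.3.3, scipy 1.17.1, Biopython 1.88 and matplotlib 3.10.9.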

Additional observations from a re-analysis of the deposited data

How the results depend on the processing

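Of 26 values under the alternatives, 21 stayed within 1.5 times the count, within the interval of the share, within the interval of the median (64.34 to 995.09 for Ptf1a, the range for Myc) or at the same rank. Widening the window by 50 kb on each side left all 18 Ptf1a and 4 Myc peaks. It could not do otherwise, since no peak of either list lies in the added stretches. Narrowing it by 50 kb on each side left 13 Ptf1a peaks and 2 Myc peaks, since peaks at both ends are lost. With a score of 100 or more, 13 Ptf1a peaks and 1 Myc peak remained in the window, and 1 of 1 Myc peak (100%) and 1 of 13 Ptf1a peaks (7.69%) overlapped. The median Ptf1a score then went from 358.6 to 692.05, over 1.5 times as high though inside that wide interval. The 2 other shared sites drop out because their Myc peaks score below 100. Coverage of 50% of the narrower peak, or midpoints within 500 bp, gave the same 3 overlaps. This too was fixed by the sites, where at least 89.1% of the Ptf1a peak was covered and midpoints were at most 106.5 bp apart. The count of 21 includes such values and is no measure of robustness. The window held 8 Ptf1a chains with gaps of at most 12500 bp, 14 with gaps of at most 5 kb and 4 with gaps of at most 25 kb. At 25 kb the chain at the lower end had 10 peaks and a median score of 835, again the highest of 104 chains as large. With tiles moved by 150 kb, none of 25 other tiles with 18 or more Ptf1a peaks had a median above 342.19. Both rankings by median score, these last 2 alternatives and the limit of 300 were chosen after seeing the data. A pair of E-box and TTCCCA at most 40 bases apart stood in 3 promoters in place of 2. With 1 library per factor no library could be left out, and a site in 1 list may have been missed in the other. No paired analysis was possible because there is a single library for either factor.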
